A study of Mus musculus with 4 samples.

Results

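The genes described are the 10 of mouse cystine uptake, glutathione synthesis and glutathione peroxidation, taken from 4 arrays of sorted gastric tumour cells. They are Slc7a11 and Slc3a2 for cystine uptake, Gclc, Gclm, Gss and Gsr for making and recycling glutathione, and Gpx1, Gpx2, Gpx3 and Gpx4 for spending it on peroxides. Members were found as every probe whose accession belongs to one of these symbols, and all 10 genes had at least 1 probe. They hold 15 of the 41174 gene probes, and 10 of 17016 genes with a symbol. Lin- CD44+ cells (2 arrays) were set against Lin- CD44- cells (2 arrays). Both came from glandular stomach tumours of K19-Wnt1/C2mE mice aged 30 weeks, a line in which the Krt19 promoter drives Wnt1, Ptgs2 and Ptges in the gastric epithelium, so the CD44- cells carry the same transgenes. All 4 samples had a digestion time of 3 hours. The sources used here name neither the lineage markers that removed cells from the sort nor the mice behind each replicate, and p-values thus cover the spread of these arrays, which may be technical.

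Glutathione is a tripeptide of glutamate, cysteine and glycine that keeps the cytosol reduced, and cysteine is usually its scarce part. Cells import cysteine as its oxidised dimer, cystine, through an exchanger built from xCT, the protein of Slc7a11, and the CD98 heavy chain, the protein of Slc3a2. A variant form of CD44 has been described to bind xCT and hold it at the surface of gastric tumour cells, a step on the protein that arrays of RNA do not measure. The comparison here asks only whether transcripts of the pathway differ between CD44+ and CD44- cells.

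The upstream sequences below show where members of each role carry sites known from stress responses, and which do not. Windows came from RefSeq (GRCm38.p6) for 8 of the 10 genes, Gclc and Gsr being named only, and each line gives the 250 bases before a transcription start, 5′ to 3′ along the gene. Capitals mark matches on either strand to the antioxidant response element core TGACNNNGC, bound by NRF2, to the amino acid response element core TGATGNAA, bound by ATF4, to the CCAAT box and to the GC box GGGCGG.
Slc7a11 (chr3:50443614-50443863, minus strand): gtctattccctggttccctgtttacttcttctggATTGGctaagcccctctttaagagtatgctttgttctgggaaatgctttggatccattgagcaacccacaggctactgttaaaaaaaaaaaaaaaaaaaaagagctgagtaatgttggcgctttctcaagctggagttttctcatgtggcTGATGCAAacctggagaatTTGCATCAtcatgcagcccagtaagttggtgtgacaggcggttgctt
Gclm (chr3:122245307-122245556, plus strand): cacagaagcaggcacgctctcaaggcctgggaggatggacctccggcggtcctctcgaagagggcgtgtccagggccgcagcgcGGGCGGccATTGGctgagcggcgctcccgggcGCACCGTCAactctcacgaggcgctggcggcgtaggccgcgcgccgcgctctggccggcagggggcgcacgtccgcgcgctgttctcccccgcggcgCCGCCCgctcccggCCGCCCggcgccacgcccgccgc
Gpx2 (chr12:76795555-76795804, minus strand): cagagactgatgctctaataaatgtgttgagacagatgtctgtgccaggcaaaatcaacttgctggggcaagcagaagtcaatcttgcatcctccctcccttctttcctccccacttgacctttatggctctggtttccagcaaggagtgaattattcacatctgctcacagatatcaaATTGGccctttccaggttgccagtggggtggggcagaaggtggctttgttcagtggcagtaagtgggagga
Gpx3 (chr11:54902604-54902853, plus strand): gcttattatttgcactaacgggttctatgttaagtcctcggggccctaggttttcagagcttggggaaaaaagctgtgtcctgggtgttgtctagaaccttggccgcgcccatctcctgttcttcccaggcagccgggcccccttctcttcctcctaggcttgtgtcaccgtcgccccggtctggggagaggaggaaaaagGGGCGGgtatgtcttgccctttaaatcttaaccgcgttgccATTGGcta
Slc7a11 holds 2 amino acid response cores, TGATGCAA with its first base 66 bases before the start and the inverted TTGCATCA at 47 bases before it, and is the only one of the 8 genes with a match to that core. Gclm holds the 1 match to the antioxidant response core among the 8 genes, the inverted GCACCGTCA at 134 bases before the start. Gpx2 and Gpx3 are shown because they had the largest differences in the 2 directions, and neither window holds either core. Among all 32851 promoter windows of this length, 10.2% hold the antioxidant and 3.45% the amino acid core. The Slc7a11 and Gclm windows hold 1 CCAAT box each, as do those of Gpx2 and Gpx3. A CCAAT box occurs in 33.9% of all windows. GC boxes stand in the Gclm, Gpx3, Slc3a2 and Gpx4 windows and in 32.7% of all windows. A match describes letters, not binding.

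Levels below are log2 of the processed signal over the 75th percentile of that array, so 0 means a probe as bright as that percentile. The CD44+ replicate 1 array was the dimmest, with a 75th percentile of 244 and 52.6% of probes well above background, against 65.0% to 69.1% on the other arrays. No spot was saturated, and all 4 arrays were on 1 slide and in 1 scan. Cd44, the sort marker, had levels of 6.31 and 6.54 in CD44+ cells and 4.26 and 5.11 in CD44- cells (difference 1.74 ± 0.49, SE, limma adjusted p = 0.199), in the direction of the sort. Of 8 epithelial markers, 8 and 7 were well above background on the CD44+ arrays and 8 on each CD44- array. Cldn4 was the one not well above it on CD44+ replicate 2, and it entered the test only because both CD44- arrays detected it. It was lower in CD44+ cells (difference -2.19 ± 0.69, SE, limma adjusted p = 0.252). The other 7 epithelial markers lay above 0, the largest being Cldn7 (1.84 ± 0.44) and Epcam (1.66 ± 0.46), and none passed. Without CD44- replicate 2 the count above 0 was 4 of 8. Ptprc, the CD45 marker of leukocytes, was well above background on all 4 arrays. Of the 8 leukocyte markers 5 lay above 0, and Cd53 passed as higher in CD44+ cells (limma adjusted p = 0.0240) with neither CD44- array well above background. The 3 below 0 were Ptprc (-0.66 ± 0.47), Laptm5 (-1.48 ± 0.57) and Tyrobp (-1.74 ± 0.53), and none of them passed. Laptm5 and Tyrobp were not well above background on CD44+ replicate 1. Leukocyte markers summed to 6.85 and 6.08 times the 75th percentile in CD44+ cells and 5.74 and 4.19 in CD44- cells. Lcp1 was the brightest of them and weighs most in these sums, with levels of 2.26 and 2.08 in CD44+ cells and 2.04 and 1.35 in CD44- cells. Mast cell markers summed to 10.6 and 15.0 in CD44+ cells and 3.50 and 3.21 in CD44- cells, with 7 of 7 tested above 0 and Mcpt1 passing (2.94, limma adjusted p = 0.0478). Of these Fcer1a (0.13), Kit (0.061) and Tpsb2 (0.055) differed little, and their groups overlapped. The count above 0 was 5 of 7 without CD44+ replicate 1 and 5 of 7 without CD44- replicate 2.

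None of the 10 genes differed between CD44+ and CD44- cells at a Benjamini-Hochberg adjusted p under 0.05 over all genes (limma). Gpx3 had the lowest difference, -3.72 on the log2 scale with 1 CD44+ array not well above background (adjusted p = 0.177). With signals below an array's detection limit raised to that limit, Gpx3 was 5.93-fold lower in CD44+ cells (limma adjusted p = 0.256). Normexp correction gave a smaller log2 difference, -1.77. Gpx2 had the highest difference, 2.13-fold higher in CD44+ cells (adjusted p = 0.455). None of the 3 Slc7a11 probes was well above background in either CD44+ sample. The other 7 genes had differences between -0.33 and 0.69 on the log2 scale. Of all 21045 genes tested 0.399% passed, 0.0238% higher and 0.375% lower in CD44+ cells. At an unadjusted p under 0.05 the share of all genes was 10.8%, with 2.86% higher and 7.9% lower. By that looser mark there were 3 of the 10 genes, Gpx2 higher and Gpx3 and Slc7a11 lower in CD44+ cells. Groups did not overlap for 4 of the 10 genes (2 higher and 2 lower), against 39.6% of all genes (22.4% higher and 17.2% lower), a share near the background. Differences were above 0 for 3 genes and below 0 for 7, against 60.6% and 39.4% of all genes, and turned to 6 above and 4 below 0 (median 0.27) without CD44- replicate 1. The median difference of the 10 genes was -0.22, against 0.16 over all genes tested. Slc7a11 and Gpx3 entered the test only because both CD44- arrays detected them.

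**Figure D1:**
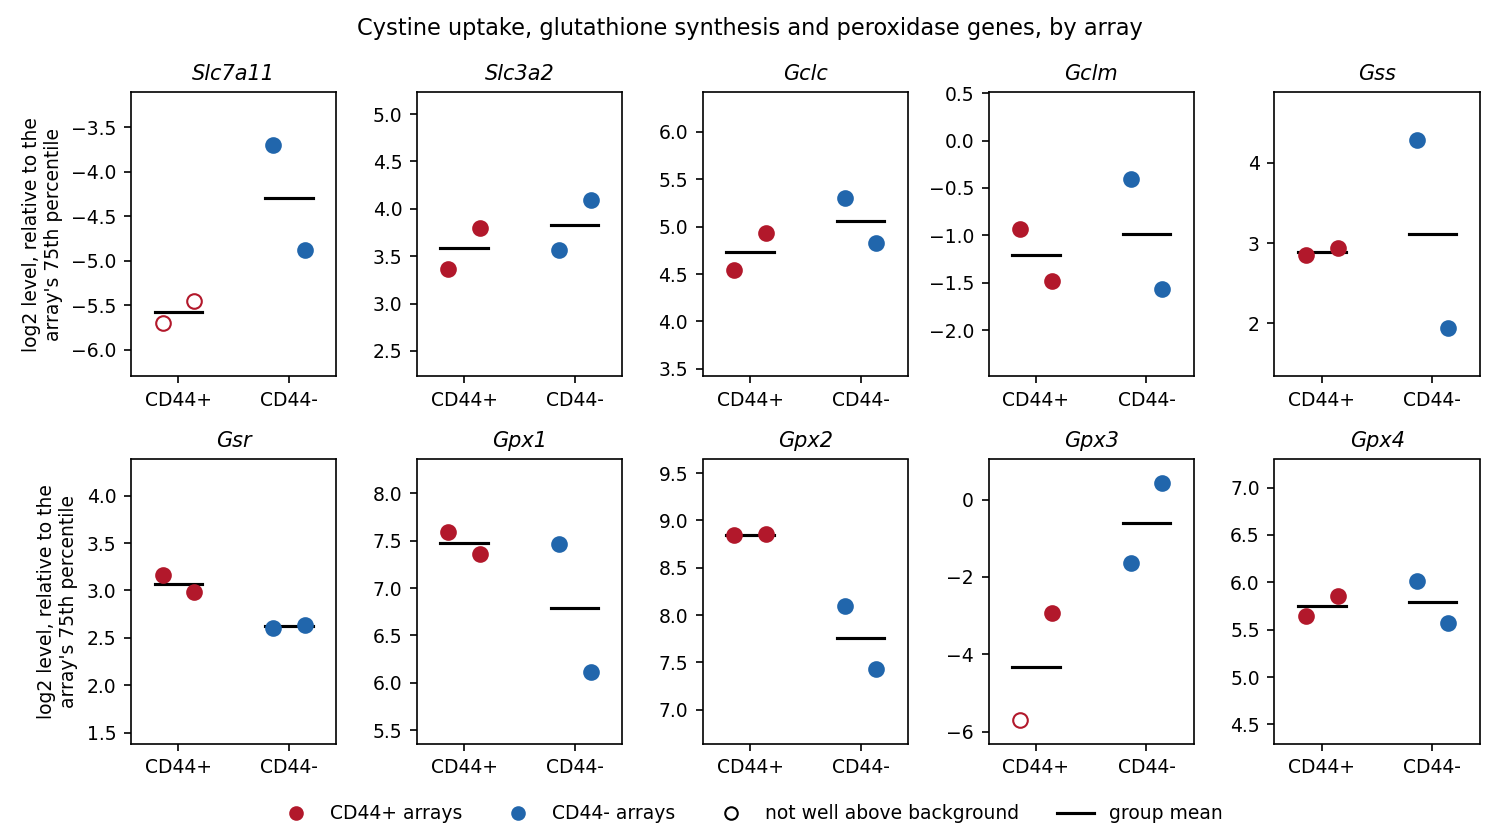
Each panel plots 1 gene, with the log2 level relative to the array's 75th percentile on the vertical axis (every panel has its own range) and the 2 CD44+ arrays left of the 2 CD44- arrays. Open circles are spots not well above background and bars are group means. Groups do not overlap for Slc7a11, Gsr, Gpx2 and Gpx3, and Slc7a11 is open on both CD44+ arrays.

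Slc7a11 encodes xCT, the subunit that exchanges cystine for glutamate. Its brightest probe had a signal of 4.70 and 11.2 in CD44+ cells, neither well above background, and 31.1 and 17.9 in CD44- cells, both well above it. The lowest signal that counted as well above background was 22.9 and 14.0 in the CD44+ samples and 13.4 and 14.1 in the CD44- samples, so the CD44- values stand close to the limit of detection. On the level scale the probe was at -5.70 and -5.45 in CD44+ cells and at -3.71 and -4.88 in CD44- cells. The difference was -1.28 ± 0.53 (SE, n = 2 arrays per group, limma adjusted p = 0.423), but its CD44+ side is background signal. With that side set to the lowest detectable signal, the CD44- mean was no higher than that limit, so no fold is given. Of the other 2 Slc7a11 probes, 1 was well above background on CD44- replicate 1 alone and the other on no array. With normexp background correction the sign turned, to 0.10 (adjusted p = 0.994), and with signals raised to the detection limit the difference was 0.013. These arrays therefore give no measured level of Slc7a11 RNA in CD44+ cells.

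Slc3a2 encodes the CD98 heavy chain, which carries xCT and other amino acid exchangers to the membrane. Its brighter probe had levels of 3.37 and 3.80 in CD44+ cells and 3.57 and 4.10 in CD44- cells. The groups overlapped, and the difference was -0.25 ± 0.47 (SE, limma adjusted p = 0.881), with a 95% confidence interval from -1.33 to 0.83. The second probe was at -3.08 and -3.52 in CD44+ cells and at -2.71 and -2.65 in CD44- cells. It pointed the same way (-0.62 ± 0.45, adjusted p = 0.774 with each probe fitted on its own) and there the groups did not overlap. The brighter probe lost its sign without CD44- replicate 2 (0.013).

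Gclc, the catalytic subunit of glutamate-cysteine ligase and so of the rate-limiting step, had levels of 4.54 and 4.94 in CD44+ cells and 5.30 and 4.82 in CD44- cells. The difference of -0.33 ± 0.46 had an interval from -1.39 to 0.74. Gclm, the modifier subunit that raises the affinity of that enzyme for glutamate, was at -0.93 and -1.48 in CD44+ cells and at -0.40 and -1.57 in CD44- cells. Both CD44+ values lay between the 2 CD44- values, and the difference was -0.22 ± 0.54. Leaving out CD44+ replicate 2 turned the sign (0.056), as did leaving out CD44- replicate 1 (0.37). The log2 ratio of Gclc to Gclm within an array, which does not depend on scaling, was 5.47 and 6.42 on CD44+ arrays and 5.71 and 6.39 on CD44- arrays, so it differed more between replicates than between groups.

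Gss, the synthetase that adds glycine in the last step, had nearly equal levels of 2.85 and 2.94 in CD44+ cells. In CD44- cells it was at 4.28 and 1.94, above and below both CD44+ values. The mean difference of -0.22 ± 0.73 (interval -1.90 to 1.46) is thus that of 1 high and 1 low CD44- array. It became 0.95 when CD44- replicate 1 was left out, and -1.39 when CD44- replicate 2 was.

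Gsr, the reductase that restores oxidised glutathione with NADPH, had levels of 3.16 and 2.98 in CD44+ cells and 2.60 and 2.64 in CD44- cells on its brightest probe. Both CD44+ arrays lay above both CD44- arrays, by a mean of 0.45 ± 0.44 (limma adjusted p = 0.801). A second probe gave 2.73 and 2.59 in CD44+ cells and 2.25 and 2.02 in CD44- cells, a difference of 0.52 ± 0.44. The third was at 2.45 and 2.29 in CD44+ cells and at 2.52 and 1.00 in CD44- cells, where the groups overlapped (0.61 ± 0.57). The 3 probes pointed the same way, and the difference of the brightest stayed between 0.36 and 0.54 whichever array was omitted. An interval from -0.55 to 1.46 leaves a change of either sign possible.

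**Figure D2:**
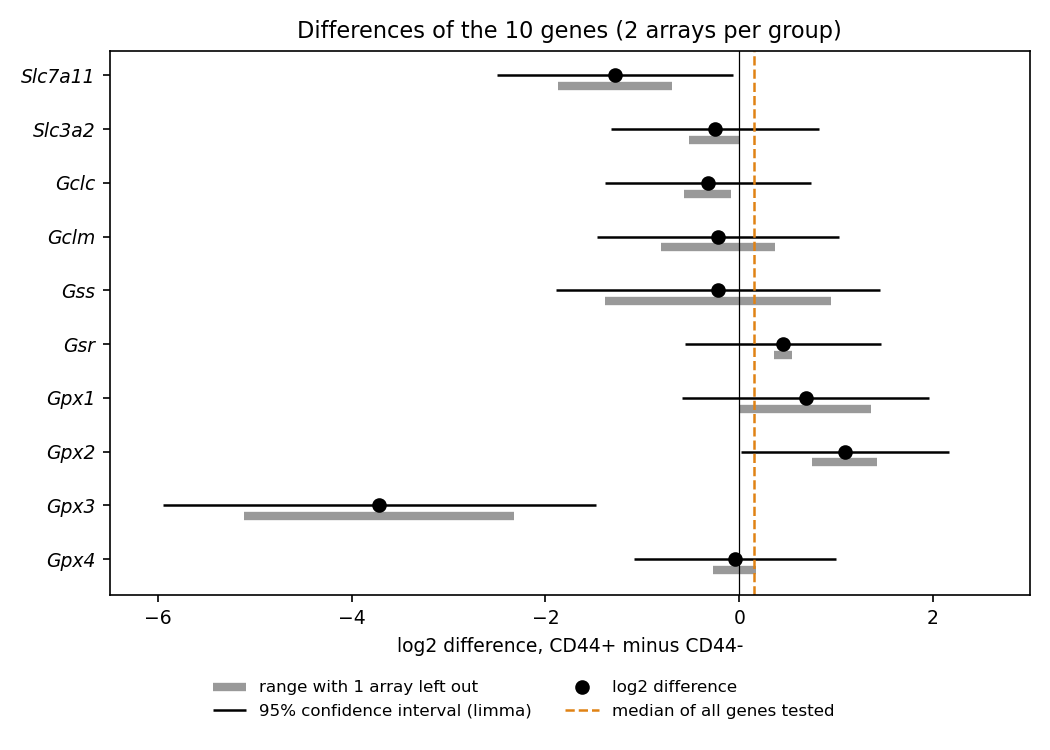
The horizontal axis is the log2 difference, CD44+ minus CD44-, for each of the 10 genes. Black bars are 95% confidence intervals from limma with 2 arrays per group, grey bars the range with 1 array left out, and the dashed line is the median of all genes tested (0.16). Gpx3 has its point at -3.72 with 1 of 2 CD44+ arrays not well above background, the Slc7a11 value rests on CD44+ signal at background, and the grey bars of Slc3a2, Gclm, Gss and Gpx4 cross 0.

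Gpx2, the peroxidase of the gastrointestinal epithelium, had levels of 8.84 and 8.86 in CD44+ cells and 8.10 and 7.43 in CD44- cells. The 2 CD44+ arrays were nearly equal (SD 0.011) and both lay above the CD44- arrays. The difference was 1.09 ± 0.47 (SE, n = 2 arrays per group, 95% confidence interval 0.015 to 2.16), which did not pass over all genes (limma adjusted p = 0.455, and 0.256 to 1.00 over the alternatives without a replicate block). Omitting 1 array gave 0.75 to 1.42. The epithelial markers showed 7 of 8 genes above 0 (4 of 8 without CD44- replicate 2), with summed levels of 2177 and 1562 in CD44+ cells and 1982 and 854 in CD44- cells, in multiples of the 75th percentile. The mucous neck markers showed 3 of 3 tested above 0 (Muc6 had no named probe), with sums of 1577 and 1449 in CD44+ cells and 861 and 461 in CD44- cells. Surface mucous markers had 2 of 4 above 0, with Muc5ac at -4.65 ± 0.93 (limma adjusted p = 0.105). They summed to 2782 and 1327 in CD44+ cells and 1758 and 1071 in CD44- cells. Parietal and chief markers had 2 of 2 tested below 0 each (Gif, listed for both, had no named probe). Without CD44- replicate 2 each list had 1 above and 1 below 0. Parietal sums were 0.32 and 0.45 in CD44+ cells and 1.60 and 21.8 in CD44- cells, and chief sums 0.62 and 2.17 against 2.82 and 16.2. Enteroendocrine markers summed to 3.70 and 5.18 in CD44+ cells and 365 and 779 in CD44- cells (6 of 8 genes passed, all lower in CD44+ cells). Squamous markers summed to 28.2 and 17.9 in CD44+ cells and 216 and 371 in CD44- cells (1 of 8 passed, Krtdap, lower). Of the 8 squamous markers 5 lay below 0. The 3 above it were Ivl (1.60 ± 0.45, limma adjusted p = 0.199), Sprr1a (0.40 ± 0.49) and Lor (0.19 ± 0.49). In these lists Ghrl, Neurod1, Krtdap and Trp63 entered the test only because both CD44- arrays detected them. The part of any of these in the Gpx2 value was not tested. In such bulk samples fewer cells of a type and less RNA per cell cannot be told apart.

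Gpx1, the cytosolic peroxidase of most cells, had levels of 7.60 and 7.36 in CD44+ cells and 7.47 and 6.12 in CD44- cells. CD44- replicate 1 lay between the CD44+ arrays and CD44- replicate 2 was low. The difference of 0.69 ± 0.55 (adjusted p = 0.781) became 0.013 without CD44- replicate 2 and 1.36 without CD44- replicate 1. Gpx4, which reduces lipid peroxides in membranes and so restrains ferroptosis, was at 5.64 and 5.86 in CD44+ cells and at 6.02 and 5.58 in CD44- cells. Its difference of -0.046 ± 0.45 was the smallest of the 10 (interval -1.09 to 1.00), and its sign turned under 4 alternatives.

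Within an array, the log2 ratio of Gpx2 to Gpx4 was 3.20 and 3.00 in CD44+ cells and 2.08 and 1.85 in CD44- cells. The groups did not overlap and differed by 1.13, a change of 1 gene relative to the other that no scaling of arrays alters. Gpx4 itself differed by only -0.046, so this ratio largely repeats the Gpx2 difference of 1.09 and is not a separate result. Among single genes 39.6% had groups that did not overlap. Groups also did not overlap for Gpx1 to Gpx4 (difference 0.73) and Gpx2 to Gpx3 (4.8, with Gpx3 not well above background on CD44+ replicate 1). They overlapped for Gsr to Gss (0.67). The ratio of Gpx2 to Gpx1 was 1.25 and 1.49 in CD44+ cells and 0.63 and 1.31 in CD44- cells, and there the groups overlapped. With 2 arrays against 2, an exact permutation test of 1 such value cannot go below a two-sided p of 0.333.

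Gpx3, the secreted peroxidase found in plasma and in the matrix around cells, had signals of 4.66 and 65.0 in CD44+ cells, the first of them not well above background, and 131 and 713 in CD44- cells. The levels were -5.71 and -2.92 in CD44+ cells and -1.64 and 0.44 in CD44- cells. The groups did not overlap, but the spread within a group was wide (SD 1.97 in CD44+ cells and 1.47 in CD44- cells). The difference was -3.72 ± 0.97 (SE, interval -5.95 to -1.48, limma adjusted p = 0.177), and -2.57 ± 0.68 with signals raised to the detection limit. It passed with each array scaled to its median (adjusted p = 0.00921), with normexp correction (-1.77, adjusted p = 0.0186), in the authors' value table (adjusted p = 0.00875) and when either CD44- array was omitted. In these 5 settings more genes passed, 3.55% of all genes with median scaling, 2.57% with normexp correction, 3.58% in the value table, 7.56% omitting CD44- replicate 1 and 2.2% omitting CD44- replicate 2. The variance model also added more degrees of freedom in these 5 settings than the 6.01 of the main fit. They were 18.9 with median scaling, 19.2 in the value table and 87.8 without a CD44- array. With normexp correction they were infinite, so 1 pooled variance served all genes. The wide spread of Gpx3 itself therefore counted for less in these settings, or not at all with normexp correction. Omitting a CD44+ array gave a difference of -2.32 (replicate 1) and -5.11 (replicate 2). Omitting a CD44- array gave -4.75 (replicate 1) and -2.68 (replicate 2).

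Markers of stromal cells moved with Gpx3. All 10 fibroblast markers had a lower mean level in CD44+ cells, none past the threshold. For 7 of them the groups did not overlap, against 17.2% of all genes lower without overlap. Dpt, Pdgfra, Pdgfrb and Thy1 entered the test only because both CD44- arrays detected them. The summed level of the 10 fibroblast markers was 12.2 and 48.0 in CD44+ cells and 78.7 and 468 in CD44- cells. Of these 10 markers, 6 and 9 were well above background on the CD44+ arrays and 10 on each CD44- array. The 9 endothelial markers summed to 1.32 and 1.84 in CD44+ cells and to 4.93 and 75.7 in CD44- cells, with Pecam1 well above background on CD44- replicate 2 alone. Of 7 endothelial markers tested, 6 lay below 0 and none passed. Cdh5 and Emcn entered the test only through the CD44- arrays. Smooth muscle markers summed to 8.99 and 8.77 in CD44+ cells and to 12.5 and 46.2 in CD44- cells. Gpx3 and all 3 of these sums were highest on CD44- replicate 2, and Gpx3 and the fibroblast and endothelial sums were lowest on CD44+ replicate 1. The part of stromal cells in the Gpx3 value was not tested.

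**Figure D3:**
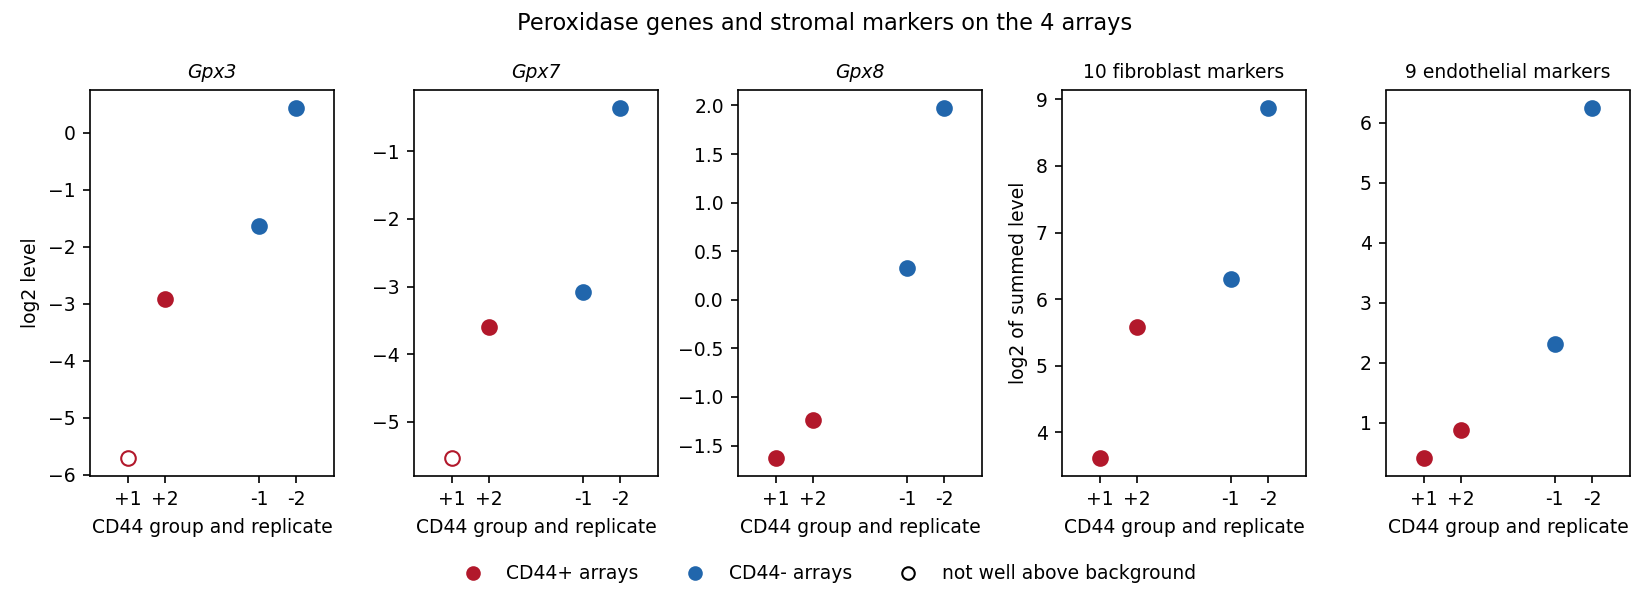
For each of the 4 arrays (CD44+ replicates 1 and 2 left, CD44- replicates 1 and 2 right) the panels give the log2 level of Gpx3, Gpx7 and Gpx8 and the log2 of the summed level of 10 fibroblast and 9 endothelial markers, all relative to the array's 75th percentile. Open circles are not well above background. All 5 panels are lowest on CD44+ replicate 1 and highest on CD44- replicate 2.

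Other genes of the pathway were taken from 6 lists of 105 genes, of which 98 were tested. None passed over all genes (limma, against 0.399% of all genes), and 12 of 98 had an unadjusted p under 0.05, 3 higher and 9 lower in CD44+ cells, against 10.8% of all genes. Their median difference was 0.15, near the 0.16 of all genes. All values below are log2 differences with SE, CD44+ minus CD44-, and none of them passed in the main fit.

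Among other glutathione peroxidases and genes of selenoprotein synthesis, 7 of 11 tested lay above 0 (median 0.19), near the 60.6% of all genes. The median was -0.052 with 5 above 0 without CD44- replicate 2, and 0.50 with 8 above 0 without CD44+ replicate 1. Gpx8 (-2.59 ± 0.61, adjusted p = 0.143) and Gpx7 (-2.86 ± 0.94, adjusted p = 0.283) are peroxidases of the endoplasmic reticulum. Both had the pattern of Gpx3, with Gpx8 levels of -1.63 and -1.24 in CD44+ cells and 0.33 and 1.97 in CD44- cells, and Gpx7 levels of -5.54 and -3.61 in CD44+ cells and -3.07 and -0.36 in CD44- cells. Gpx7 was not well above background on CD44+ replicate 1 (-1.79 ± 0.79 with signals raised to the detection limit) and entered the test only through the CD44- arrays. The stromal marker sums given for Gpx3 apply to both genes. Gpx8 and Gpx7 passed with median scaling (limma adjusted p = 0.0211 and 0.0461), where 3.55% of all genes passed. Lrp8, a receptor for selenoprotein P, lay at 1.79 ± 0.44 (adjusted p = 0.157), with levels of -0.98 and -0.99 in CD44+ cells and -2.64 and -2.90 in CD44- cells. Sephs1 differed by 0.63 ± 0.44. Gpx5 and Gpx6 were too dim to be tested.

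In cysteine and glutathione turnover 12 of 24 lay above 0, against 60.6% of all genes, and 9 to 15 with 1 array left out. Slc1a1, a glutamate carrier that also imports cysteine, was at 1.79 ± 0.54 (adjusted p = 0.232), with levels of -0.32 and -0.51 in CD44+ cells and -2.82 and -1.59 in CD44- cells. The other 3 with an unadjusted p under 0.05, enzymes that break glutathione or peptides down outside the cell, lay on the other side. They were the gamma-glutamyl transferase relative Ggt5 (-2.91 ± 1.14), the aminopeptidase Anpep (-1.82 ± 0.72) and the dipeptidase Dpep1 (-1.32 ± 0.54). Ggt5 was not well above background on CD44+ replicate 1 and entered the test only through the CD44- arrays. The Ggt5 difference was -1.98 ± 0.90 with signals raised to the detection limit. Its levels were -5.29 and -2.46 in CD44+ cells and -2.52 and 0.60 in CD44- cells, lowest and highest on the same arrays as Gpx3 and the fibroblast and endothelial sums, whose part was not tested. Without CD44- replicate 1 Ggt5 differed by -4.48 and Anpep by -2.96, and without CD44- replicate 2 Slc1a1 differed by 2.40. In each case the CD44- array left out was the one nearer to the CD44+ values. Leaving out the other CD44- array instead gives a smaller difference. Anpep levels were -1.38 and -1.64 in CD44+ cells and -0.83 and 1.45 in CD44- cells.

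In the list of thioredoxins, peroxiredoxins, glutaredoxins, superoxide dismutases and catalase, 18 of 22 lay above 0 with a median of 0.50, against 60.6% of all genes above 0. That count was 10 of 22 without CD44- replicate 2, with a median of -0.030. Prdx4, the peroxiredoxin of the endoplasmic reticulum, was at 1.63 ± 0.46 (adjusted p = 0.200), with levels of 5.11 and 5.47 in CD44+ cells and 3.87 and 3.46 in CD44- cells. The mitochondrial Prdx3 (0.86 ± 0.52) and Txn2 (0.65 ± 0.45) lay on the same side, and catalase, Cat, which splits hydrogen peroxide without glutathione, on the other (-1.22 ± 0.47).

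NRF2, the protein of Nfe2l2, binds the antioxidant response element, and KEAP1 marks it for destruction. Nfe2l2 differed by -0.25 ± 0.53 and Keap1 by -0.064 ± 0.46. Of 18 NRF2 regulators and targets tested, 7 lay above 0, against 60.6% of all genes, and 0 had an unadjusted p under 0.05. The count above 0 was 10 with median scaling, 11 when CD44- replicate 1 was omitted and 3 when CD44- replicate 2 was. The 4 with the smallest p were the repressor Bach1 (-1.19 ± 0.69), Osgin1 (-0.54 ± 0.44), the haem oxygenase Hmox1 (-0.58 ± 0.50) and G6pdx, which supplies NADPH (0.56 ± 0.62). ATF4 binds the amino acid response element marked in the Slc7a11 sequence, and Atf4 itself differed by -0.48 ± 0.44. In its list 7 of 12 lay above 0, against 60.6% of all genes, but 4 of 12 without CD44- replicate 1 and 4 of 12 without CD44+ replicate 2. The serine synthesis enzyme Phgdh (-1.34 ± 0.47) and the stress factor Atf3 (-1.90 ± 0.72) were lower at an unadjusted p under 0.05, while Ddit3 differed by -0.60 ± 0.48 and the kinase gene Eif2ak3 by 0.63 ± 0.45. Atf3 passed with normexp correction (limma adjusted p = 0.00816), where 2.57% of all genes passed, and differed by -2.92 without CD44- replicate 1. Its levels were 1.68 and 2.76 in CD44+ cells and 3.11 and 5.14 in CD44- cells, so omitting CD44- replicate 2 instead gives a smaller difference. Phgdh had levels of 0.61 and 0.62 in CD44+ cells and 1.60 and 2.32 in CD44- cells.

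Of genes for lipid peroxidation and iron, 9 of 11 lay above 0 (median 0.42), against 60.6% of all genes. That count was 6 of 11 (median 0.17) without CD44+ replicate 2 and 7 of 11 without CD44- replicate 1. Gch1 (0.85 ± 0.48), Tfrc, the transferrin receptor (0.73 ± 0.44), and Acsl4, which loads polyunsaturated fatty acids into lipids (0.61 ± 0.46), were on that side. The lipoxygenase Alox5 was at -2.72 ± 0.85 (adjusted p = 0.247), with levels of -2.56 and -0.047 in CD44+ cells and 0.69 and 2.15 in CD44- cells, and it too was highest on CD44- replicate 2 and lowest on CD44+ replicate 1. It passed with median scaling (limma adjusted p = 0.0466), where 3.55% of all genes passed.

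**Figure D4:**
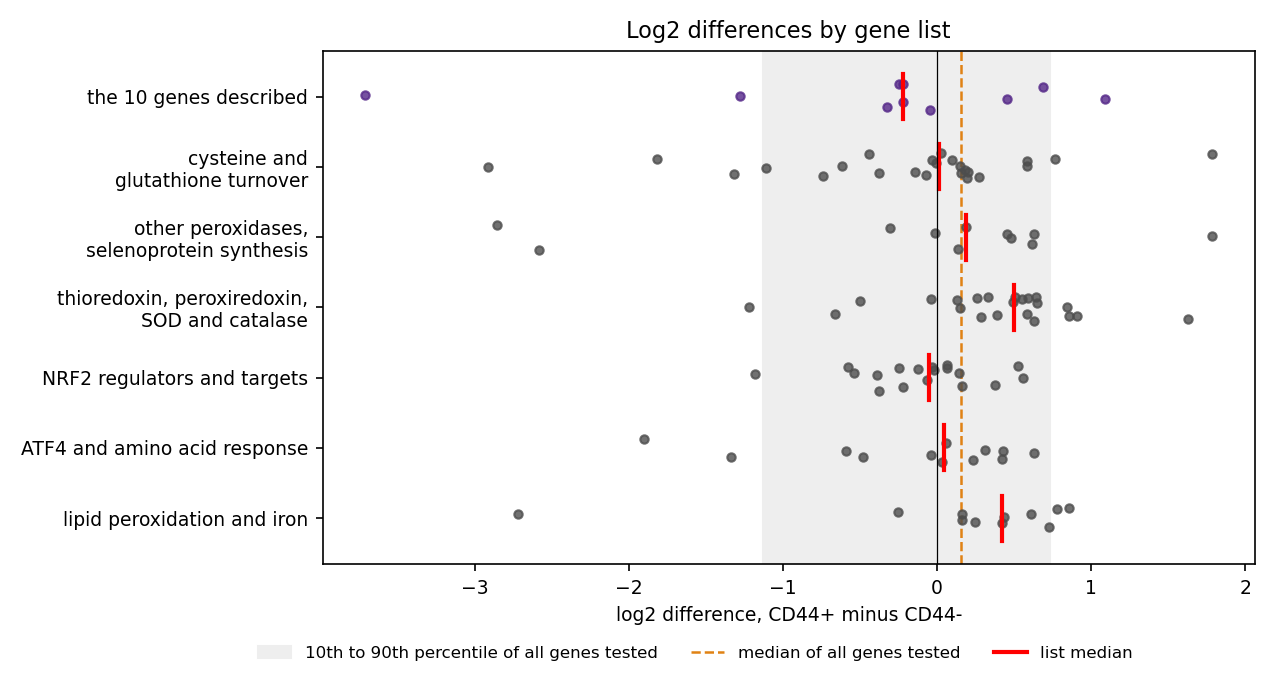
Each point is 1 gene, placed by its log2 difference (CD44+ minus CD44-) and grouped by list, with the list median in red, the median of all genes tested as a dashed line at 0.16 and the 10th to 90th percentile of all genes tested (-1.13 to 0.73) shaded. The 10 genes described have a median of -0.22, and the thioredoxin and peroxiredoxin list one of 0.50.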

How the data were processed

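RNA of 4 samples was measured, 1 per array, after 25 ng of total RNA was amplified and labelled with Cy3, per the labels' protocols, which can distort ratios and lose rare transcripts. Per the file headers, the deposited processed signal is an intensity on a linear scale, background-subtracted by Agilent Feature Extraction 10.1.1.1 (the submitters' processing notes name 9.5). The median spot and background signals are raw intensities, per the file headers, and the deposited flags are 0 or 1. The authors' value table holds a linear ratio: set against the scanner values over 10728 probes, it is the processed signal over 1 factor per array (SD at most 0.00161 on the log2 scale) and per probe. How the factors were chosen is not known. Its column medians are 0.853 and 0.989 for CD44+ and 0.928 and 0.739 for CD44- arrays.

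Control spots and outlier spots (109 to 133 on an array) were dropped, and replicate spots averaged. Log2 processed signals minus each array's 75th percentile were fitted with limma 3.58.1 (R 4.3.3, lmFit and eBayes, no covariates, 2 residual degrees of freedom plus 6.01 from the variance model). A probe was tested if both arrays of either group had it well above background, and the brightest stood for its gene, which gave 21045 genes. Benjamini-Hochberg adjustment ran over all of them, and values under 0.05 were called. Genes with several probes were also fitted probe by probe. Accessions named 24375 of 41174 probes through a RefSeq table (GRCm38.p6). Members and lists were chosen with earlier results of these data known. Named were all members, Cd44, Nfe2l2, Keap1 and Atf4, the up to 4 genes per pathway list with the smallest p besides any past the threshold, other genes only as cell markers. The 3 genes nearest to Slc7a11 in pattern, also in the rule, are not described, since the CD44+ part of that pattern is background signal. The fit was tested on simulated data. Alternatives were other scaling, background correction, filters, probe choices, the value table, a replicate block, a signal floor and leaving out each array. With 4 arrays, their number limits precision.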

Additional observations from a re-analysis of the deposited data

How the results depend on the processing

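Of the 10 genes, 0 passed, and that count was 0 with quantile normalization, with no filter on dim probes, with detection on all 4 arrays (8 genes tested) and with the mean of all probes or each probe on its own. It was 1, Gpx3 each time, with median scaling, normexp correction, the authors' value table and the replicate block (adjusted p = 6.41e-11), and 0 to 1 with an array left out (Gpx3 without either CD44- array). Raising signals below the detection limit to it, a choice made after seeing the data, left both counts at 0 and 42 calls over all genes. For the pathway lists 0 genes passed, but 3 with median scaling, 3 with normexp correction, 3 in the value table and 9 with the replicate block. With an array left out the pathway count ran from 0 to 7, and 7 came without CD44- replicate 1. In fits without an array the lone one is assumed to vary like the other group. Over all genes 84 passed, against 748 with median scaling, 540 with normexp correction, 753 in the value table, 1829 with the block, 6 with quantile normalization, 24 with no filter, 34 and 2 without CD44+ replicates 1 and 2, and 1590 and 464 without CD44- replicates 1 and 2. The cause was not tested. Degrees of freedom added by the variance model differed too, with 6.01 in the main fit and 3.52 with quantile normalization. They were 18.9 with median scaling, 19.2 in the value table, 5.06 without a CD44+ array and 87.8 without a CD44- array. With normexp correction and with the block they were infinite, so that 1 pooled variance served all genes, Gpx3 included. Median scaling moved the median of all genes from 0.16 to 0.26. The replicate numbers of the titles are not stated to pair samples. Deviations of the same-numbered arrays correlated at 0.347 over genes.

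Signs turned for Gpx4 (0.059 with median scaling, 0.057 in the value table, 0.063 without CD44+ replicate 1, 0.18 without CD44- replicate 1), Slc7a11 (0.10 with normexp, 0.013 with floored signals), Gclm (0.056 without CD44+ replicate 2, 0.37 without CD44- replicate 1), Gss (0.95 without CD44- replicate 1) and Slc3a2 (0.013 without CD44- replicate 2). Leaving out arrays gave -0.27 to 0.18 for Gpx4, -0.80 to 0.37 for Gclm, -1.39 to 0.95 for Gss and -0.51 to 0.013 for Slc3a2. The median of the 10 genes was 0.27 without CD44- replicate 1, and between -0.42 and 0.27 with any array left out. A block for slide or scan was not run, since all arrays share 1 of each. Signal close to background limits Slc7a11, and on CD44+ replicate 1 also Gpx3, Gpx7 and Ggt5.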
